A study of Mus musculus with 4 samples.

Results

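Regulatory T cells in B16-F10 tumours were taken here as the barcodes of a CD45-selected single-cell RNA data set that met a rule on raw counts of unique molecular identifiers (UMIs, 1 per captured transcript). The rule asked for at least 2 UMIs of Cd3d, Cd3e and Cd3g together, 0 UMIs of Cd8a and Cd8b1, at least 2 UMIs of Foxp3, Ikzf2 and Il2ra together, 0 UMIs of the macrophage receptor gene Csf1r and fewer than 10 UMIs of the melanocyte genes Mlana and Dct. It was met by 128 of 8677 kept barcodes, namely 46 and 36 in the Adar1-null libraries S1 and S2 and 30 and 16 in the control libraries S3 and S4. Because the cells were chosen by the UMI counts of these genes, their levels against other cells are given as a description with no test.

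The tumours were Adar1-null or control B16-F10 tumours, with 2 libraries each. B16-F10 is a mouse melanoma line, and in both groups tumour cells in matrigel were placed into C57BL/6 mice, the tumours were taken on day 14 and digested for 10 min at 37 °C, and CD45-positive cells were enriched. Adar1, encoded by Adar, edits double-stranded RNA. The labels give the null genotype for the implanted tumours and name no alteration of the mice, from which the T cells come. How Adar1 was disrupted, and whether each tumour line was 1 clone, is not given in the sources used here. The 2 libraries of a group are not stated to come from different mice, and every p below reflects the spread between these libraries alone. Adar, counted in melanoma-like barcodes (at least 10 UMIs of Mlana and Dct), was at 9.77 and 13.0 CPM (UMIs of the gene scaled to a common total) in the Adar1-null libraries and at 11.6 and 11.8 CPM in the control libraries. Since 3′ tags need not cover the disrupted part of a gene, these values do not check the labels.

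Regulatory T cells are the CD4-positive T cells that hold immune responses in check, under the lineage factor Foxp3, which is encoded on chromosome X at 7579676 to 7595243 (GRCm38, the build also called mm10). They take up interleukin-2 through a high-affinity receptor with the alpha chain Il2ra, strip costimulatory ligands from dendritic cells with Ctla4, and release inhibitory cytokines such as interleukin-10. In tumours they commonly carry an activated effector programme with Icos, Tnfrsf4 and Tnfrsf18, and they are known for restraining CD8 T cells.

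The cells met the rule mainly through Ikzf2. This gene, which encodes the Foxp3 partner Helios, was detected in 123 of the 128 cells, against 60 with Foxp3 and 62 with Il2ra. All 3 genes were detected in 31 cells, Foxp3 with Ikzf2 in 28, Ikzf2 with Il2ra in 26, and Ikzf2 alone in 38. Cd4, which the rule did not use, was detected in 42 cells. By library, Foxp3 was detected in 22 of 46 and 18 of 36 cells of the Adar1-null libraries and in 8 of 30 and 12 of 16 cells of the control libraries. The control libraries thus lay on either side of the Adar1-null libraries.

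The label was checked against 3 regulatory T cell genes outside the rule: Tnfrsf4, a costimulatory receptor also known as OX40, the inhibitory receptor Ctla4, and Izumo1r, also known as folate receptor 4. They are called core markers here. At least 1 of the 3 was detected in 109 of the 128 cells (85.2%). Of the 60 cells with Foxp3, all had at least 1 of them, with a median of 13.5 UMIs. Among the 68 cells without Foxp3 these numbers were 49 and 5.5 UMIs. In the 38 cells with Ikzf2 alone, 21 had such a marker and the median was 1 UMI. The markers are not specific to regulatory T cells, since without thinning Tnfrsf4 was also detected in 56.2%, Ctla4 in 65.7% and Izumo1r in 11.3% of the CD8 T cells.

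Beside T cell transcripts, a part of the cells carried transcripts of antigen-presenting cells. The major histocompatibility complex (MHC) class II genes H2-Aa, H2-Ab1 and H2-Eb1 summed to at least 10 UMIs in 40 of the 128 cells and to at least 80 UMIs in 33 of them. Only 5 cells had 5 to 9 UMIs and 3 had 10 to 19, so few lay near the division. These 40 class II-high cells had medians of 145 class II UMIs, 8 Cd3 UMIs and 9127.5 UMIs in all, and the 88 class II-low cells had medians of 1 class II UMI, 17 Cd3 UMIs and 6110.5 UMIs. Among CD8 T cells, which had at least 1 UMI of Cd8a or Cd8b1 and none of Foxp3, 80 of 1108 (7.22%) reached 10 class II UMIs. Scrublet, which scores barcodes for being 2 cells in 1 droplet, marked 1 of the 128. Whether the class II-high barcodes held more than 1 cell was not tested otherwise. Results below are given with them and, for some, also without them.

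**Figure D1:**
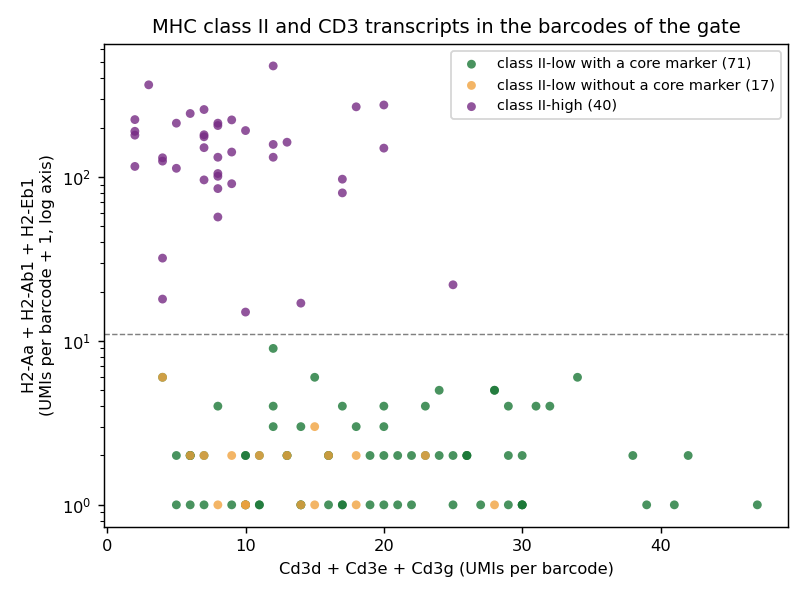
UMIs of 3 MHC class II genes plus 1 (vertical axis, log scale) against UMIs of Cd3d, Cd3e and Cd3g (horizontal axis) in each of the 128 barcodes, coloured by set, with a dashed line at the division. The class II-high cells, at 10 or more class II UMIs, lie apart from the class II-low cells and lower in Cd3 UMIs, with medians of 8 against 17.

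The class II-low cells fell into 2 sets by the core markers. A set of 71 cells (55.5% of all) had at least 1 of them, and a set of 17 cells (13.3%) had none. By library, the set with a marker held 26 and 20 cells in the Adar1-null libraries and 16 and 9 in the control libraries, and the set without held 6 and 6 against 4 and 1. Foxp3 was detected in 42 of the 71 cells and in 0 of the 17, which allows up to 17.6% of cells with a Foxp3 UMI by 3 counts of the total and sets no limit on cells that express it. The 71 cells had a pooled level of 830 CPM of Tnfrsf18, the costimulatory receptor GITR, 390 CPM of the costimulatory receptor gene Icos, 225 CPM of the transcription factor gene Maf and 196 CPM of Il10. In the 17 cells the same genes were at 165, 18.3, 36.6 and 0 CPM. Gzmb, a granule protease, was at 2054 CPM in the 71 cells and 211 CPM in the 17. From S1 to S4 it was at 1118, 1737, 846 and 6364 CPM in the 71 cells and at 0, 476, 165 and 0 CPM in the 17. Of the 541 Gzmb UMIs in all cells of the rule in S4, 195 were in 1 barcode.

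The 17 cells without a marker were led by genes of other lymphocytes. These leading genes were chosen after their values were seen, among genes detected in at least 40% of the set. Xcl1, a chemokine that draws cross-presenting dendritic cells, was at 751 CPM in the 17 cells and 46.1 CPM in the 71. Klra7 and Klrd1, both receptors of natural killer cells and of some T cells, were at 394 and 586 CPM in the 17 cells and at 25 and 74.9 CPM in the 71. Tcf7, a transcription factor of naive and innate-like T cells, was at 238 CPM and 23.1 CPM. Ncr1, a defining natural killer cell gene, was at 18.3 CPM in the 17 cells and 21.1 CPM in the 71. Klra8 was at 0 in both. The natural killer cell genes Klrb1c and Eomes were higher in the 17 cells, on few UMIs. Klrb1c was at 54.9 and 7.69 CPM (6 and 4 UMIs) and Eomes at 45.8 and 7.69 CPM (5 and 4 UMIs). Ikzf2 itself was at 925 CPM in the 17 cells and 895 CPM in the 71. The 17 cells had 0 UMIs of Foxp3 and 1 of Il2ra in all. They thus met the rule through Ikzf2, and its presence in them is set by the rule. The sets were divided by the core markers themselves, so their levels of these markers are no check of the label.

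The 40 class II-high cells held both kinds of transcript. Tnfrsf4 was at 539 CPM in them, against 1251 CPM in the 71 cells, and Foxp3 at 75.8 CPM against 169 CPM. Their leading genes, again chosen after their values were seen, were Cd74, the class II invariant chain, at 10552 CPM against 329 CPM, the protease inhibitor gene Cst3 at 7485 CPM against 534 CPM, and the interferon-induced membrane protein gene Ifitm1 at 1126 CPM against 5.76 CPM. Cd209a, a dendritic cell lectin, was at 331 CPM against 42.3 CPM. The defining dendritic cell genes Flt3, Clec9a and Xcr1 were at 28.1, 42.1 and 11.2 CPM and were at 0 in the 71 cells, and Zbtb46, another, was at 8.43 CPM against 3.84 CPM. Ccr7 and Fscn1, genes of mature dendritic cells, were at 278 and 121 CPM against 71.1 and 36.5 CPM. Of the macrophage genes, Adgre1 was at 22.5 CPM against 1.92 CPM and Cd68 at 199 CPM against 30.7 CPM. The complement genes C1qa, C1qb and C1qc were at 441, 584 and 427 CPM against 42.3, 61.5 and 34.6 CPM. They were detected in 16, 18 and 16 of the 40 cells. Apoe was at 416 CPM against 108 CPM and the lysozyme gene Lyz2 at 918 CPM against 419 CPM. The B cell gene Cd79a was at 0 in all 3 sets.

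**Figure D2:**
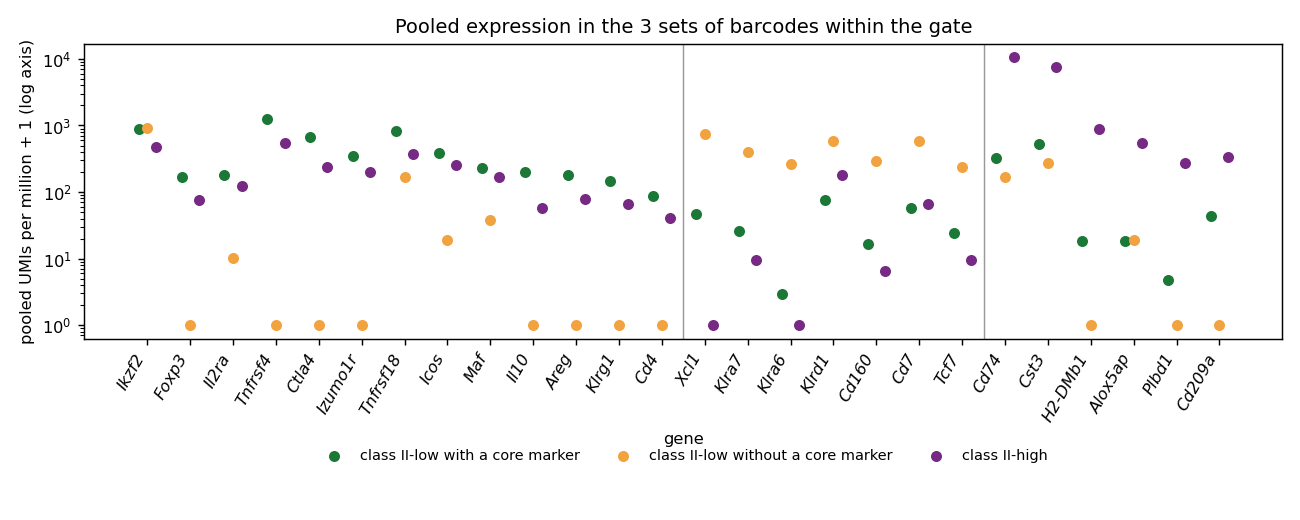
Pooled CPM plus 1 (log axis) of selected genes in the 3 sets of the 128 barcodes that met the rule (the gate): 71 class II-low with a core marker, 17 class II-low without, and 40 class II-high. Icos and Il10 are highest in the first set (390 and 196 CPM), Xcl1 and Klra7 in the second (751 and 394 CPM), and Cd74 and Cst3 in the third (10552 and 7485 CPM).

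Cells with core markers also lay just outside the rule. At a sum of 2 UMIs of Foxp3, Ikzf2 and Il2ra, 9 of 15 cells had Tnfrsf4, Ctla4 or Izumo1r, and at a sum of 1 UMI, just outside, 9 of 11 did. No cell at either edge had Foxp3. The CD8 criterion left out 17 cells with 1 UMI of Cd8a or Cd8b1 that met all else, of which 13 had Foxp3. It also left out 459 cells with at least 2 such UMIs, of which 35 had Foxp3 and 418 (91.1%) a core marker, a share no lower than the 85.2% within the rule. With 1 Csf1r UMI, 15 cells were left out and 7 had Foxp3.

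Against CD8 T cells, the regulatory T cells carried more Maf and Il10 and fewer transcripts of several granzymes, given here as a description. Among the largest ratios in the same direction in all 4 libraries were those of Maf, at 186 CPM in regulatory and 9.80 CPM in CD8 T cells, and Il10, at 146 CPM and 7.92 CPM. Izumo1r was at 247 CPM and 18.5 CPM, and Cd4 at 58.0 CPM and 5.28 CPM. Other genes among the 15 of highest ratio, such as Cd209a, Cd74 and H2-DMb1, belonged to the class II-high cells. Several granzymes, though not Gzmb, lay among the 10 genes of lowest ratio. Gzmk had 0 of 985732 UMIs in regulatory T cells, which allows up to 3.04 CPM, and was at 62.7 CPM in CD8 T cells. Of the other granzymes, Gzmd was at 10.3 CPM and 364 CPM and Gzmf at 154 CPM and 1165 CPM. The means in regulatory T cells rest on S4. From S1 to S4, Gzmd was at 0, 0, 0 and 41.2 CPM there and Gzmf at 3.08, 0, 0 and 611 CPM. Of the 89 Gzmf UMIs in S4, 75 were in 1 barcode. Cxcr6, a receptor of tissue-resident T cells, was at 56.8 CPM and 341 CPM.

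The 44 other CD8-negative T cells, which had no UMI of Foxp3, Ikzf2 or Il2ra, were the class most like the regulatory T cells. Il1r2, a decoy receptor for interleukin-1, was at 86.9 CPM in regulatory T cells and 11.5 CPM in the other cells. Areg, an epidermal growth factor receptor ligand linked to tissue repair, was at 127 CPM and 27.7 CPM, and Itgb7, an integrin chain, at 273 CPM and 46.4 CPM. Ctla4 was at 437 CPM and 92.8 CPM and Tnfrsf4 at 835 CPM and 194 CPM. Klre1 and Klrb1c, receptors of natural killer cells and related T cells, were at 38.1 and 10.1 CPM in regulatory T cells and at 213 and 61.4 CPM in the others. Spp1, secreted osteopontin, was at 96.6 CPM and 747 CPM, and the inhibitor of differentiation gene Id3 at 10.6 CPM and 105 CPM. The Spp1 means rest largely on S4. From S1 to S4 it was at 33.9, 23.2, 27.2 and 302 CPM in regulatory T cells. In the others it was at 47.9, 141, 144 and 2656 CPM.

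Detection per cell gave the same picture after every cell was thinned to 3900 UMIs, a number below the lowest total of 3961, so that no cell was left out. Median totals before thinning were 6579.5 UMIs in regulatory T cells, 8936.5 in CD8 T cells and 7428 in 3624 cells with Csf1r and no Cd3, which should lack T cell genes and show the background. Tnfrsf4 was detected in 73.4% of regulatory T cells (80.5% unthinned), in 39.7% of CD8 T cells (56.2%) and in 0.662% of the background cells (1.19%). Izumo1r was detected in 49.2% (59.4%), 6.41% (11.3%) and 0.0276% (0.138%) of the same 3 classes. Cxcr3, a receptor for interferon-induced chemokines, was detected in 28.1% (34.4%), 5.87% (11.4%) and 1.30% (2.73%). Both receptors were thus far above the background in regulatory T cells and less frequent in CD8 T cells.

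Other receptors ran the opposite way. The inhibitory receptor Pdcd1 was detected in 14.1% of regulatory T cells (24.2% unthinned), in 62.3% of CD8 T cells (81.3%) and in 0.414% of the background cells (0.938%). Cxcr6 was detected in 10.9% (21.9%), 65.3% (84.0%) and 0.193% (0.497%). Ccr8, a receptor common on tumour regulatory T cells, was detected in only 3.12% (6.25%), 0.722% (1.90%) and in 0 of the 3624 background cells, which allows up to 0.0828% by 3 counts. Maf and Il10, which macrophages also express, were detected after thinning in 45.3% and 23.4% of regulatory T cells, in 4.15% and 2.26% of CD8 T cells and in 45.7% and 6.79% of the cells with Csf1r, which are no background for these genes.

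The first comparison of the tumours asked whether loss of Adar1 in the tumour goes with other numbers of regulatory T cells. Regulatory T cells made up 2.33% and 1.84% of the kept cells of the Adar1-null libraries and 1.53% and 0.574% of those of the control libraries. Both Adar1-null libraries lay above both control libraries, with means of 2.09 ± 0.349% and 1.05 ± 0.675% (SD, n = 2 each). An exact two-sided permutation test over the libraries gave p = 0.333, the smallest p that its 6 splits allow, so no difference could be called. The low share of S4 rests on 16 of 2786 cells (exact 95% binomial interval 0.329% to 0.931%, counting error only).

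Within the T cells the groups overlapped. Regulatory T cells made up 12.5% and 8.82% of T cells in the Adar1-null libraries and 9.93% and 6.13% in the control libraries (10.6 ± 2.58% and 8.03 ± 2.69%, SD, n = 2 each, exact permutation p = 0.667). Of CD8-negative T cells they made up 75.4% and 65.5% against 68.2% and 69.6% (70.4 ± 7.04% and 68.9 ± 0.978%, SD, n = 2 each, exact permutation p = 1). The number of CD8 T cells per regulatory T cell was 6.22 and 9.5 in the Adar1-null libraries and 8.37 and 14.3 in the control libraries (7.86 ± 2.32 and 11.3 ± 4.20, SD, n = 2 each, exact permutation p = 0.667). None of these 3 ratios separated the groups under the rule. With Foxp3 required, the share of CD8-negative T cells was 36.1% and 32.7% against 18.2% and 52.2%. Its mean then lay 0.781 percentage points lower in the Adar1-null libraries, so its direction rests on the rule. CD8 T cells per regulatory T cell were then 13 and 19 against 31.4 and 19.1, barely without overlap (exact permutation p = 0.333, the smallest possible, n = 2 each). Selection for CD45 sets what these shares are taken of.

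**Figure D3:**
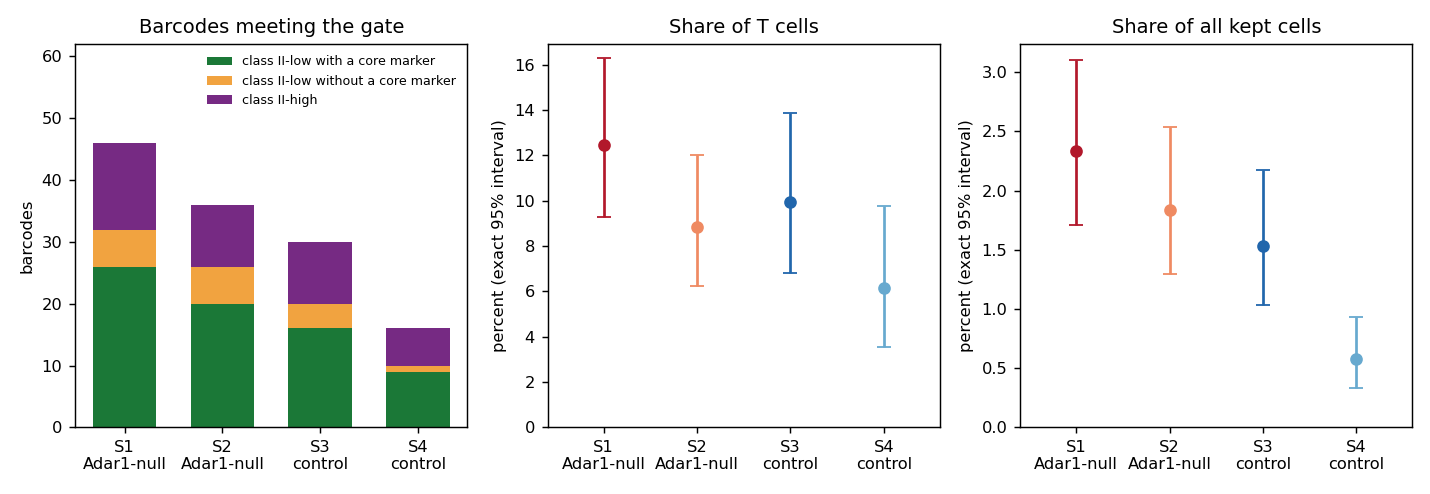
Barcodes that met the rule (the gate) by set, as stacked bars, and their share of T cells and of all kept cells in percent with exact 95% binomial intervals, with the Adar1-null libraries (S1, S2) left of the control libraries (S3, S4). The groups do not overlap in the share of kept cells (2.33% and 1.84% against 1.53% and 0.574%) and overlap in the share of T cells.

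Most regulatory T cells expressed several cell cycle genes. At least 3 of 48 such genes were detected, after thinning, in 95.7% and 94.4% of them in the Adar1-null libraries and in 83.3% and 93.8% in the control libraries (unthinned 97.8% and 94.4% against 90.0% and 93.8%). The groups did not overlap, with means of 95 ± 0.854% and 88.5 ± 7.37% (SD, n = 2 each, exact permutation p = 0.333, the smallest possible). At least 5 genes were detected in 76.1% and 63.9% against 53.3% and 75.0%, and these groups overlapped (exact permutation p = 0.667, n = 2 each). Without 4 widely expressed genes (Stmn1, Tuba1b, Hmgb2 and H2afz), at least 3 were found in 62.5% of regulatory and 82.1% of CD8 T cells. Free RNA in droplets can enter such counts, and its part in them was not tested.

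The second comparison asked which genes of the regulatory T cells differ between Adar1-null and control tumours. UMI counts were summed over the cells of each library, giving 324290 and 258472 UMIs in the Adar1-null libraries and 257344 and 145626 in the control libraries, and 3536 genes passed the filter on low counts. No gene passed the quasi-likelihood test of edgeR at a Benjamini-Hochberg adjusted p of 0.05 (0 of 3536, 0%). At an unadjusted p under 0.05, 94 genes were higher (2.66%) and 89 lower (2.52%). DESeq2, run on 12067 genes without that filter, called 0 higher and 3 lower at an adjusted p of 0.05 (Ccl6, Cxcl2 and Ifitm1, named after their values were seen), with 13 higher and 43 lower at an unadjusted p under 0.05. The groups did not overlap for 686 genes higher in Adar1-null (19.4%) and 531 lower (15%), and the log2 change of Adar1-null over control was positive for 50.3%. Leaving out S1, S2, S3 or S4 gave 23, 9, 42 or 19 calls, in fits where the lone library of a group is assumed to vary like the others. Fewer cells of a set in a sum and less RNA of a gene per cell cannot be told apart in these sums.

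Foxp3, Ikzf2 and Il2ra chose the cells, so their levels by group are a description. Foxp3 was at 102 and 159 CPM in Adar1-null and 93.3 and 117 CPM in control libraries. Ikzf2 was at 808 and 731 CPM against 754 and 604 CPM, and Il2ra at 92.5 and 162 CPM against 159 and 172 CPM. Of the core markers, Tnfrsf4 had 771 and 998 CPM in Adar1-null and 952 and 618 CPM in control libraries (log2 change of Adar1-null over control with its standard error 0.11 ± 0.23), Ctla4 444 and 484 CPM against 443 and 378 CPM (0.12), and Izumo1r 278 and 259 CPM against 260 and 192 CPM (0.18). Of these 6 genes, only Ctla4 had groups that did not overlap, and by 1 CPM. Of 9 tested genes of the regulatory T cell identity list outside the rule, 7 had a positive log2 change, and the median was 0.18, against 0.00 over all genes tested. Without overlap, 3 lay higher and 1 lower (19.4% and 15% of all genes). Class II-low cells alone gave 4 of 7 positive and a median of 0.02.

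Genes of activated tumour regulatory T cells and of suppression also showed no call. Socs2, a brake on cytokine signalling of the interleukin-2 receptor and STAT5 list, was at 89.4 and 112 CPM in Adar1-null and 58.3 and 20.6 CPM in control libraries (1.15 ± 0.43, Benjamini-Hochberg adjusted p = 0.824, edgeR quasi-likelihood test). Il1r2 lay the other way without overlap, at 64.8 and 54.2 CPM against 105 and 124 CPM (-0.95 ± 0.35, adjusted p = 0.824, same test). Icos was at 361 and 302 CPM against 256 and 227 CPM (0.41 ± 0.24), and Prdm1, which encodes the repressor Blimp-1 of effector regulatory T cells, at 27.8 and 19.3 CPM against 50.5 and 48.1 CPM (-1.08). Il10 was at 64.8 and 124 CPM in Adar1-null and 101 and 295 CPM in control libraries (-1.04 ± 0.59), with overlap and its highest value in S4. Areg was at 163 and 147 CPM against 19.4 and 179 CPM, with the control libraries on either side. Penk, a precursor of enkephalin peptides made by tissue regulatory T cells, was at 142 and 34.8 CPM against 167 and 165 CPM (-0.90).

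The lists of these roles stayed near the median of all genes. Tumour and tissue effector genes were positive in 8 of 17 (median -0.01), suppressive molecules in 4 of 11 (-0.18), costimulatory receptors in 8 of 12 (0.13), inhibitory receptors in 3 of 6 (-0.16), and the interleukin-2 receptor and STAT5 list, without Il2ra, in 5 of 11 (-0.13). Genes of T cell receptor signalling and NR4A feedback, without Ikzf2, were positive in 12 of 15 (0.20), with 6 higher and 1 lower without overlap (19.4% and 15% of all genes). The class II-low cells gave 8 of 12 positive for this last list, with a median of 0.05, and 1 higher and 1 lower without overlap (17.2% and 13.3% of all genes). Lgals3, which encodes the lectin galectin-3, had 854 and 665 CPM in Adar1-null and 1449 and 1607 CPM in control libraries (-1.04 ± 0.19, Benjamini-Hochberg adjusted p = 0.0890, edgeR quasi-likelihood test). Class II-high cells held 80.7% of its UMIs, and in class II-low cells it was at 278 and 278 CPM against 377 and 428 CPM (-0.55 ± 0.28).

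Groups without overlap were common, with 19.4% of all genes higher and 15% lower. Some receptor and signalling genes were among them. The part of class II-high cells in the values of these genes is not given here, so the values need not be those of T cells. Havcr2, the inhibitory receptor TIM-3, was at 18.5 and 11.6 CPM in Adar1-null and 42.7 and 89.3 CPM in control libraries (-2.01 ± 0.67, Benjamini-Hochberg adjusted p = 0.679, edgeR quasi-likelihood test). Ccr1, a receptor for inflammatory chemokines, was at 24.7 and 19.3 CPM against 62.2 and 61.8 CPM (-1.50 ± 0.53, adjusted p = 0.814, same test). Traf1, an adaptor of TNF receptors, was at 244 and 337 CPM against 377 and 391 CPM (-0.45 ± 0.24), and Ltb, the lymphocyte cytokine lymphotoxin beta, at 934 and 731 CPM against 711 and 584 CPM (0.31 ± 0.21). Klf2, a transcription factor of resting and recirculating T cells, was at 188 and 205 CPM against 124 and 124 CPM (0.62 ± 0.28). Socs1, a brake on interferon and cytokine signalling, was at 95.6 and 85.1 CPM against 54.4 and 41.2 CPM (0.83 ± 0.38). Nr4a3, an immediate target of T cell receptor signals, was at 43.2 and 50.3 CPM against 11.7 and 27.5 CPM (1.33 ± 0.70), and was detected in 13 cells. Tnfaip3, which encodes the NF-kB inhibitor A20, was at 151 and 224 CPM against 120 and 110 CPM (0.64 ± 0.30).

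**Figure D4:**
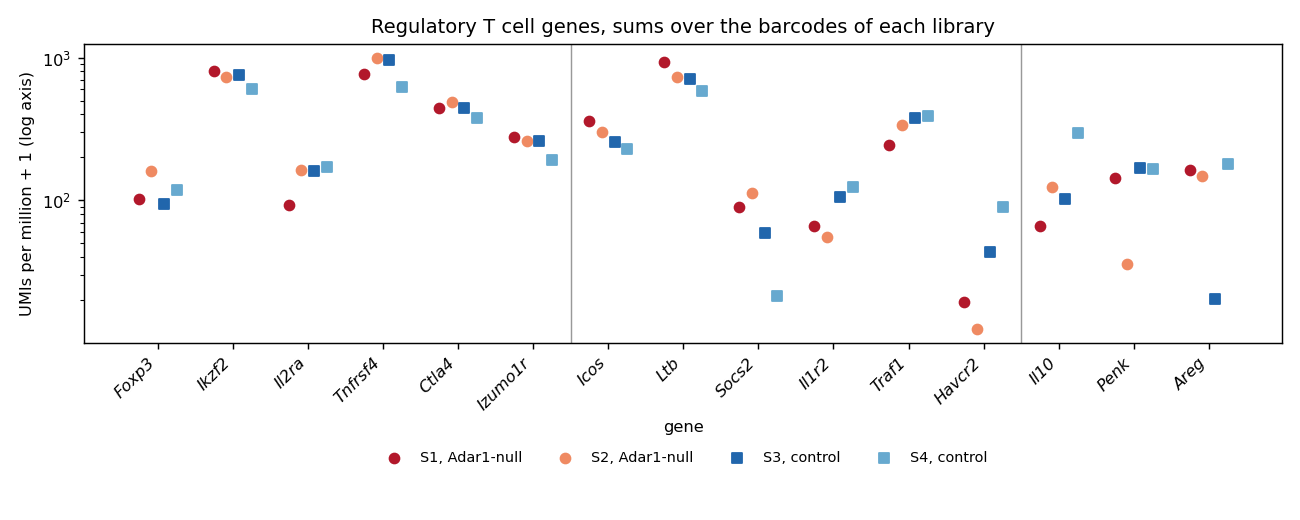
CPM plus 1 (log axis) of regulatory T cell genes in sums over the barcodes of each library, with Adar1-null libraries (S1, S2, circles) left of control libraries (S3, S4, squares). From left to right stand marker genes, receptors and signalling genes, and secreted products. The groups overlap for Foxp3, Ikzf2, Il2ra, Tnfrsf4 and Izumo1r, and Il1r2 lies lower in both Adar1-null libraries (64.8 and 54.2 CPM against 105 and 124 CPM).

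Most type I interferon-stimulated genes had a positive log2 change in Adar1-null tumours, while no single member was called. This list answers interferon alpha and beta, which unedited double-stranded RNA can induce. Of 38 tested members, 34 had a positive log2 change (50.3% of all genes), 17 were higher and 1 lower without overlap (19.4% and 15% of all genes), and the median was 0.47. Ifit1, an interferon-induced RNA-binding protein gene on chromosome 19 at 34640889 to 34650009, was at 83.3 and 112 CPM in Adar1-null and 27.2 and 6.87 CPM in control libraries (27 and 29 UMIs against 7 and 1). Its log2 change was 2.24 ± 0.51 (Benjamini-Hochberg adjusted p = 0.180, edgeR quasi-likelihood test), with groups that did not overlap. Usp18, a protease that removes the modifier Isg15, had 22 and 22 UMIs against 8 and 0, and Ifit3, a partner of Ifit1, 15 and 13 UMIs against 2 and 0. The filter on low counts asks for enough UMIs in 2 libraries. Ifit1, Usp18 and Ifit3 could thus pass it through the Adar1-null libraries alone. For such members a positive change without overlap is favoured by the filter, here and in the sets of cells below. How many members passed this way was not counted. Ifi203, a member of the interferon-inducible HIN-200 family, was at 213 and 190 CPM against 132 and 89.3 CPM (0.78 ± 0.29).

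The size of this list's difference depended on the library. Its summed level was 10463 and 12814 CPM in the Adar1-null libraries and 10507 and 5706 CPM in the control libraries, so that S3 lay with S1 and S4 lay lowest. Leaving out S1, S2, S3 or S4 gave medians of 0.88, 0.35, 1.31 or 0.38. In class II-low cells 23 of 25 tested members were positive (49.6% of all genes) with a median of 0.60, and 13 were higher without overlap (17.2% of all genes). In the 71 class II-low cells with a marker the summed level was 10544 and 12306 CPM against 10408 and 5048 CPM. After 74 barcodes with at least 2 UMIs of 5 macrophage genes were removed, which left 22 and 21 against 9 and 2 cells, 10 of 17 members were positive (56.3% of all genes) with a median of 0.33, against 0.08 over all genes. How S4's lower level bears on the list was not tested beyond these values.

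In the 60 cells with a Foxp3 UMI every tested type I interferon-stimulated gene had a positive change, while none was called. There 0 of 1668 genes passed the edgeR test (0%), with 43 higher (2.58%) and 27 lower (1.62%) at an unadjusted p under 0.05. DESeq2 was not run on them. All 23 tested members of the list had a positive log2 change (49.0% of all genes), 14 were higher without overlap (17.8% of all genes), and the median was 0.81. Here too members could pass the filter through the Adar1-null libraries alone, such as Ifit1 with 17 and 21 UMIs against 1 and 1. The filter favours a positive sign in such members, so these counts are no independent support. Myeloid transcripts in these cells were positive in 8 of 9 (median 0.28) and summed to 14119 and 14080 CPM in Adar1-null and 4851 and 17242 CPM in control libraries, and their part in the result was not tested. With equal cell numbers per library, 16 drawn from all cells of the rule with or without Foxp3, 24 of 24 interferon genes were positive. Their median was 1.0. This was 1 random draw from the same cells, it used all 16 cells of S4, and it is no independent support. The share of all genes that was positive in this draw is not given here. In the 60 cells with Foxp3, Isg15, the ubiquitin-like modifier, had 41 and 82 UMIs in Adar1-null and 4 and 7 UMIs in control libraries. It was detected in 10 of 22 and 16 of 18 cells against 3 of 8 and 4 of 12. Its level was 262 and 719 CPM against 60.6 and 71.5 CPM (2.80 ± 0.60, adjusted p = 0.385, same test). Irf7, which amplifies interferon production, was at 153 and 237 CPM against 45.5 and 10.2 CPM (2.87 ± 0.63, adjusted p = 0.385, same test). Isg15 and Irf7 were chosen after their values were seen. In the 68 cells without Foxp3, Isg15 was at 221 and 222 CPM against 350 and 21.0 CPM, so there S3 lay above both Adar1-null libraries.

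MHC class I genes, which interferons induce and which present peptides to CD8 T cells, were positive in 12 of 19 with a median of 0.18, and 7 were higher and 1 lower without overlap (19.4% and 15% of all genes). H2-K1 was at 2340 and 2561 CPM in Adar1-null and 2079 and 1476 CPM in control libraries (0.41), and H2-D1 at 2818 and 2863 CPM against 2456 and 1882 CPM (0.34). H2-T22, a non-classical class I gene, was at 490 and 580 CPM against 365 and 302 CPM (0.62 ± 0.22). H2-Q6, another non-classical class I gene, was at 133 and 182 CPM against 81.6 and 54.9 CPM (1.09 ± 0.34, Benjamini-Hochberg adjusted p = 0.591, edgeR quasi-likelihood test). H2 genes are near copies of each other, so reads may be split among them. The summed level was 16097 and 17986 CPM against 16220 and 11839 CPM. Without S4 the list was positive in 9 of 20 with a median of -0.04, so its direction rests on S4.

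Interferon-gamma-induced genes were positive in 13 of 24 with a median of 0.13, and in class II-low cells in 16 of 20 with a median of 0.19. Over all cells the median was -0.08 without S2 (12 of 25 positive) and -0.09 without S4 (10 of 26), so its direction rests on these libraries. Irf1, a transcription factor induced by interferon gamma, was at 182 and 209 CPM in Adar1-null and 159 and 68.7 CPM in control libraries (0.64 ± 0.33). Irf8, a factor of dendritic cells, macrophages and activated lymphocytes, lay the other way, at 253 and 321 CPM against 400 and 597 CPM (-0.82 ± 0.25, Benjamini-Hochberg adjusted p = 0.564, edgeR quasi-likelihood test). Class II-high cells held 57.5% of its UMIs, and in class II-low cells the groups overlapped, at 234 and 202 CPM against 198 and 406 CPM. The double-stranded RNA sensing list had 3 tested genes, 1 of them positive (median -0.10). Adar was detected with 11 and 2 UMIs in Adar1-null and 4 and 2 UMIs in control libraries, too few for a comparison.

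Most glycolysis and hypoxia genes had a negative log2 change in Adar1-null tumours, again with no call. Of 21 tested members 18 had a negative log2 change, 9 were lower and 0 higher without overlap (15% and 19.4% of all genes), and the median was -0.31. Gapdh, a glycolytic enzyme on chromosome 6 at 125161852 to 125166467, was at 444 and 437 CPM in Adar1-null and 754 and 652 CPM in control libraries (-0.72 ± 0.21, Benjamini-Hochberg adjusted p = 0.453, edgeR quasi-likelihood test). In class II-low cells it was at 477 and 442 CPM against 773 and 698 CPM (-0.71 ± 0.25), as large as in all cells. Slc2a1, the glucose transporter GLUT1, was at 43.2 and 34.8 CPM against 81.6 and 96.1 CPM (-1.19 ± 0.40), and the enzyme gene Pgam1 at 348 and 317 CPM against 462 and 488 CPM (-0.55 ± 0.22). Ero1l, an oxidase of the endoplasmic reticulum that hypoxia induces, was at 49.3 and 42.6 CPM against 66.1 and 130 CPM. The list's summed level was 7096 and 7556 CPM against 8514 and 8927 CPM, without overlap. Among class II-low cells 4 of 17 were positive and the median was -0.20. In the 71 class II-low cells with a marker the summed level was 8919 and 8615 CPM against 9969 and 8743 CPM, with overlap. Without the 74 barcodes with macrophage genes, which left 9 and 2 control cells, 8 of 14 were positive and the median was 0.16. That share was near the share of all genes given above for this setting, so the negative direction was not seen there. In the cells with a Foxp3 UMI, 2 of 14 were positive (49% of all genes) and the median was -0.34.

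**Figure D5:**
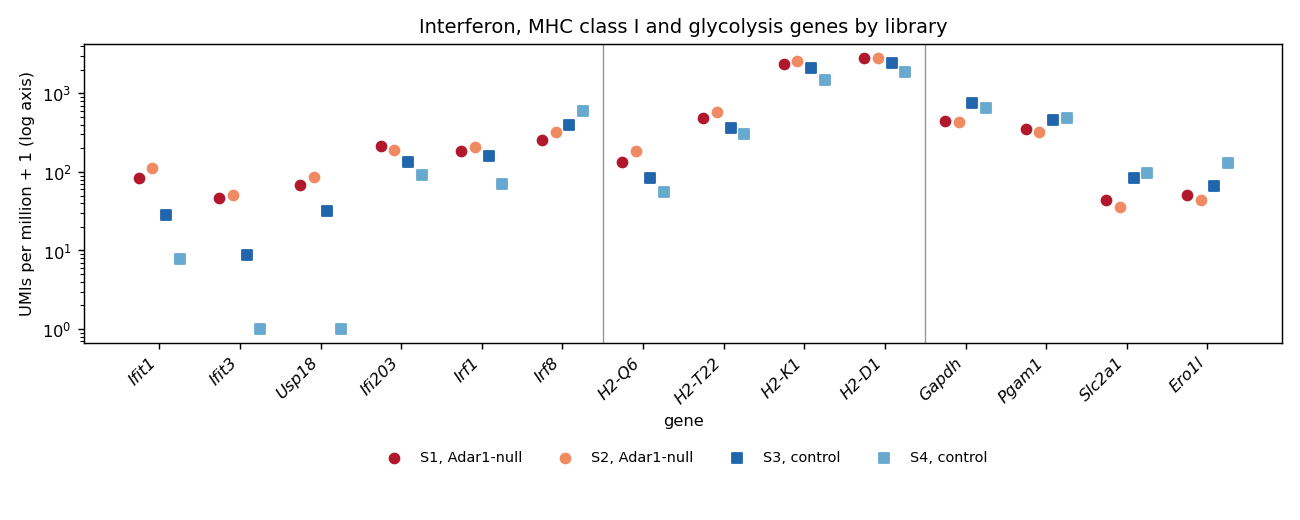
CPM plus 1 (log axis) of interferon-induced genes, MHC class I genes and glycolysis genes in sums over the barcodes of each library, with Adar1-null libraries (S1, S2, circles) left of control libraries (S3, S4, squares). Ifit1 lies higher in both Adar1-null libraries (83.3 and 112 CPM against 27.2 and 6.87 CPM) and Gapdh lower (444 and 437 CPM against 754 and 652 CPM).

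Over all cells the remaining lists showed no call in any member. Oxidative phosphorylation was positive in 18 of 37 (median -0.01), ribosomal proteins in 6 of 23 (-0.02), cell cycle in 21 of 36 (0.07), and TNF and NF-kB response in 14 of 20 (0.25). Dissociation and immediate-early genes, which tissue digestion can induce, were positive in 8 of 21 (-0.11), with Dusp1, a phosphatase induced by stress, at 435 and 302 CPM in Adar1-null and 505 and 625 CPM in control libraries (-0.64 ± 0.23). Chemokine receptors and homing were positive in 4 of 13 (-0.12), naive and central memory genes in 4 of 7 (0.32), helper lineage and cytokines in 4 of 8 (0.00), and cytotoxic effectors in 3 of 13 (-0.11). Ccl3, an inflammatory chemokine, was at 182 and 170 CPM against 194 and 611 CPM (-1.17 ± 0.60). In class II-low cells, the TNF and NF-kB response list and the dissociation list each had 1 member called lower. Cytotoxic effectors were positive there in 5 of 13, with a median of -0.53.

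Markers of other cell types were set beside these values. Myeloid transcripts, of which 14 of 18 were tested, were positive in 5 (median -0.12), and their summed level was 16599 and 10732 CPM in Adar1-null and 16359 and 13651 CPM in control libraries, with Csf1r at 0 by the rule. C1qa, a complement subunit of macrophages, was at 364 and 205 CPM against 128 and 48.1 CPM (1.54, Benjamini-Hochberg adjusted p = 0.591, edgeR quasi-likelihood test). CD8 and natural killer transcripts had 1 tested gene (-0.49) and summed to 40.1 and 143 CPM against 58.3 and 82.4 CPM, with Cd8a, Cd8b1 and Klra8 at 0. Melanoma transcripts summed to 70.9 and 69.6 CPM against 54.4 and 96.1 CPM. B cell, neutrophil, gamma-delta T cell and erythroid transcripts had no tested gene and summed to between 0 and 18.5 CPM in Adar1-null libraries and between 0 and 75.5 CPM in control libraries. The part of myeloid transcripts in the values above was not tested beyond the results in class II-low cells and without macrophage-gene barcodes.

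The genes with the smallest p-values over all cells belonged largely to the class II-high cells. Cst3 was at 2624 and 2213 CPM in Adar1-null and 3719 and 4072 CPM in control libraries (-0.73 ± 0.15, Benjamini-Hochberg adjusted p = 0.110, edgeR quasi-likelihood test), with 89.6% of its UMIs in class II-high cells. In class II-low cells its log2 change was 0.84. Cd24a, a surface glycoprotein of dendritic and other cells, was at 33.9 and 19.3 CPM against 97.1 and 179 CPM (-2.29 ± 0.44), with 94.0% of its UMIs in class II-high cells. Ifitm1 was at 234 and 135 CPM against 882 and 481 CPM (-1.93), and 98.3% of its UMIs were in class II-high cells. Fscn1, an actin-bundling protein of mature dendritic cells, lay higher, at 86.3 and 104 CPM against 27.2 and 13.7 CPM (2.03, adjusted p = 0.180, same test). Of its 64 UMIs, 67.2% were in class II-high cells and 23 were in 1 barcode of S2.

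In the 40 class II-high cells themselves, 3 of 1355 genes (0.221%) passed the same test, and 38 were higher (2.8%) and 42 lower (3.1%) at an unadjusted p under 0.05. Ifi27l2a, an interferon-stimulated gene, rose, with 2175 and 2593 CPM in Adar1-null and 1032 and 545 CPM in control libraries (log2 change 1.51 ± 0.26, Benjamini-Hochberg adjusted p = 0.018, edgeR quasi-likelihood test). Lgals3 fell, with 1794 and 1609 CPM against 3116 and 3447 CPM (-0.99 ± 0.20, adjusted p = 0.037, same test), and Ifitm1 fell, with 617 and 425 CPM against 2243 and 1178 CPM (-1.75 ± 0.31, adjusted p = 0.0176, same test). These 3 were named after their values were seen. The sums rest on 14 and 10 against 10 and 6 cells.

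In the 88 class II-low cells, 5 of 2500 genes (0.2%) were called by the same test, and all 5 fell in Adar1-null tumours. At an unadjusted p under 0.05, 47 genes were higher (1.88%) and 49 lower (1.96%). DESeq2 was not run on these cells, and the 5 genes were named after their values were seen. Mt2 and Mt1 encode metallothioneins, which bind zinc and answer metal and glucocorticoid signals. Mt2 was at 4.97 and 16.4 CPM in Adar1-null and 109 and 203 CPM in control libraries (-3.74 ± 0.62, Benjamini-Hochberg adjusted p = 0.00305, edgeR quasi-likelihood test), and Mt1 at 89.5 and 60 CPM against 230 and 315 CPM (-1.84 ± 0.37, adjusted p = 0.0135, same test). Ccl2, a monocyte attractant, was at 24.9 and 43.7 CPM against 179 and 451 CPM (-3.13 ± 0.49, adjusted p = 0.00305, same test). Ier3, an immediate-early survival gene, was at 34.8 and 10.9 CPM against 128 and 315 CPM (-3.13 ± 0.55, adjusted p = 0.0106, same test). Nrip1, a nuclear receptor corepressor, was at 44.8 and 27.3 CPM against 172 and 124 CPM (-2.08 ± 0.45, adjusted p = 0.0367, same test). The groups did not overlap for any of the 5.

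Few barcodes carried most of these counts. Of the Ccl2 UMIs, 26 of 28 in S3 and 38 of 40 in S4 were in 1 barcode each, and of the Ier3 UMIs 16 of 20 and 24 of 28. In S3, 15 of 17 Mt2 UMIs were in 1 barcode, and in S4 8 of 18. Nrip1 was spread more evenly, with a UMI in 6 of 32 and 4 of 26 Adar1-null cells and in 12 of 20 and 5 of 10 control cells. It was not called over all 128 cells, where it was at 83.3 and 38.7 CPM in Adar1-null and 187 and 130 CPM in control libraries (-1.41 ± 0.36, Benjamini-Hochberg adjusted p = 0.330, edgeR quasi-likelihood test).

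A last comparison asked whether regulatory T cells differ from other T cells in how they differ between the tumours. The interaction, the Adar1-null over control change in regulatory T cells minus that in CD8 T cells, passed for 21 of 8820 genes (0.238%), 1 positive (0.0113%) and 20 negative (0.227%), in edgeR's quasi-likelihood fit with the library as a block and the same adjustment. Orai1, a calcium channel subunit that T cell receptor signals open, was the positive gene and was singled out after its value was seen. It was at 173 and 190 CPM in Adar1-null and 124 and 68.7 CPM in control regulatory T cells, and at 96.3 and 81.3 CPM against 124 and 125 CPM in CD8 T cells (1.33 ± 0.32, adjusted p = 0.0196, same test). Both classes had groups without overlap, in opposite directions. Orai1 was called without S3 and was not called without S1, S2 or S4 or in class II-low cells. Leaving out S1, S2, S3 or S4 gave 17, 10, 33 or 38 calls, and class II-low cells of both classes gave 4 of 8377 (0.0477%), Ccl2, Mt1, Mt2 and Spp1, all negative and named after their values were seen. Mt2 there had an interaction of -3.99, Mt1 of -1.94 and Ccl2 of -3.83.

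The 5 genes with the largest interactions rested on few UMIs or few barcodes. Sdc1, a proteoglycan of plasma and other cells, had 16 UMIs in regulatory T cells, 14 of them in 1 barcode of S3. Timp1, a protease inhibitor, had 16 UMIs, with 9 in 1 barcode of S4. Arg1, an arginine-degrading enzyme of macrophages, had 116 UMIs, of which 58 were in 1 barcode of S4, and Pf4, a platelet and macrophage chemokine, had 177, of which 120 were. Rhob, a small GTPase, had 17 UMIs, at 0 and 11.6 CPM in Adar1-null and 27.2 and 48.1 CPM in control libraries. In class II-low cells the interaction of Pf4 was 0.83 and was not called.

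Against the 44 other CD8-negative T cells, 21 of 2222 genes (0.945%) had an interaction past the threshold, 10 positive (0.45%) and 11 negative (0.495%), by the same test. Each library held 7 to 16 of those cells. The largest interactions were of genes with no UMI in some of the sums, such as Ifitm1, at 443 and 191 CPM in Adar1-null and 0 and 0 CPM in control libraries of the other cells. Tnfrsf9, the activation receptor 4-1BB, singled out after its value was seen, was at 407 and 511 CPM against 342 and 446 CPM in regulatory T cells and at 12 and 90.7 CPM against 159 and 535 CPM in the other cells (2.77 ± 0.62, adjusted p = 0.0212, same test). The groups did not overlap in the other cells and overlapped in regulatory T cells. Tnfrsf9 was not called without S1 or without S4. Leaving out S1, S2, S3 or S4 gave 15, 56, 34 or 43 calls.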

How the data were processed

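Messenger RNA was measured in single CD45-selected cells by 10x droplet sequencing of 3′ ends (v2 chemistry) in 2 Adar1-null and 2 control libraries. The authors deposited 1 matrix of whole-number UMI counts, not normalized, for 27998 genes and 8838 barcodes. Cell Ranger, Seurat 2.2.0 and mm10 were used, per the submitters' processing notes, while aligner settings, gene annotation and any filter on cells are not given in the sources at hand. Each barcode names its library and thereby its group, but no replicate number.

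Of the deposited barcodes 161 were removed for fewer than 500 detected genes or over 10% mitochondrial UMIs. The 4 libraries kept 1972, 1957, 1962 and 2786 barcodes with 23986842, 23697078, 25681541 and 33198317 UMIs (S1 to S4). The sequence of 38 deposited barcodes also occurred in an earlier library, and of 0 regulatory T cells. Doublets were scored with Scrublet per library and kept, apart from an alternative without scores of 0.1 or more.

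UMI counts were summed per library and tested with edgeR 4.0.16 (R 4.3.3): TMM scaling, filterByExpr, robust glmQLFit with glmQLFTest, and p-values adjusted by Benjamini-Hochberg over all genes tested (0.05). CPM relate UMIs to the total of a sum. DESeq2 1.42.0 was an alternative. Single values were compared by exact two-sided permutation over libraries (scipy 1.17.1, Python 3.11.15, scanpy 1.11.5), with exact (Clopper-Pearson) 95% intervals for shares that hold counting error alone. The counts, fits and interaction were tested on simulated data.

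Members and the 28 gene lists were chosen with earlier results of these data known. Genes named are those of the rule and the markers, called genes, the 4 members of smallest p in each list, up to 8 higher and 8 lower genes of at least 50 CPM whose groups do not overlap, the extremes against other T cells, and the 5 largest interactions. Others are said to be chosen after their values were seen. The alternatives were the normalization, the test, the filter, each library left out, Foxp3 required, doublets, equal cell numbers, macrophage-gene barcodes, the mitochondrial maximum and, added after seeing the data, class II-low cells and other lists of cycling genes. Coordinates are RefSeq's on GRCm38.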

Additional observations from a re-analysis of the deposited data

Results flagged for a closer look

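The Adar1-null over control change differed between regulatory T cells and another T cell class for the genes below, by the interaction test in edgeR after Benjamini-Hochberg adjustment, and these are the 5 largest differences on the log2 scale against each class. Against CD8 T cells, Sdc1 had a difference of -10.28 with 0 and 0 UMIs in Adar1-null and 14 and 2 UMIs in control regulatory T cells. Timp1 was at -7.48, with 234 and 9.22 CPM in Adar1-null and 1.92 and 3.18 CPM in control CD8 T cells, so this difference lies in part in S1's CD8 T cells. Arg1 was at -4.32, with 12.3 and 0 CPM in Adar1-null and 42.7 and 694 CPM in control regulatory T cells. Rhob was at -3.65. Pf4 was at -2.87, with 58.6 and 3.87 CPM in Adar1-null and 81.6 and 934 CPM in control regulatory T cells.

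Against the other CD8-negative T cells, Ifitm1 had a difference of -10.68 and Gzma, which encodes granzyme A, of 8.97, with 30 of the 32 Gzma UMIs of regulatory T cells in 1 barcode of S2. Ccr7, a lymph node homing receptor, was at 8.26, with 0 and 0 CPM in Adar1-null and 216 and 0 CPM in control libraries of the other cells. Arg1 was at -8.22 and Ctsl, a lysosomal protease, at -7.14, with 21.6 and 19.3 CPM in Adar1-null and 27.2 and 460 CPM in control regulatory T cells. Of its 86 UMIs in regulatory T cells, 41 were in 1 barcode of S4. In the other cells Ctsl was at 659 and 30.2 CPM against 0 and 55.3 CPM, so this difference lies in part in S1's other cells. Fitted differences of genes with sums of 0 depend on the prior count and are no bounds.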

How the results depend on the processing

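Shares of T cells and kept cells, CD8 T cells per regulatory T cell and the share cycling kept their direction under all alternatives run, and none could be called with 2 libraries a group. The share of CD8-negative T cells, 1.56 percentage points higher in Adar1-null libraries, was -3.42 without S1 to 6.54 without S2, 6.85 in class II-low cells, -0.78 with Foxp3 required and -0.55 with a mitochondrial maximum of 5%. Calls over all genes in regulatory T cells (0) numbered 3 with DESeq2, 22 with no filter, 10 without macrophage-gene barcodes, 5 in class II-low cells and 9 to 42 without 1 library. Interactions against CD8 T cells (21) numbered 4 in class II-low cells and 10 to 38 without 1 library, and those against other CD8-negative T cells (21) numbered 41 with no filter and 15 to 56 without 1 library. Among 700 log2 changes of 69 named genes under alternatives, 25 changed sign. Without macrophage-gene barcodes these were Foxp3 (-0.57), Ikzf2 (-0.60), Tnfrsf4 (-0.73), Ctla4 (-0.20), Icos (-0.020), Lgals3 (0.42), Ltb (-0.54), Socs1 (-0.46), H2-K1 (-0.0036), Cst3 (3.07) and Rps2 (0.26). In class II-low cells they were Il2ra (0.063), Tnfrsf4 (-0.031), Ccr7 (-0.14), Cst3 (0.84) and the interaction of Pf4 (0.83). With equal cell numbers they were Il2ra (0.095), Izumo1r (-0.44) and Ccl2 (0.014). With Foxp3 required it was Ltb (-0.043), and with 1 library left out the ranges were -0.065 to 0.60 for Foxp3, -0.014 to 0.32 for Ikzf2, -0.15 to 0.49 for Tnfrsf4 (-0.082 without S2) and -0.23 to 2.93 for Areg. The cause of these shifts was not tested. Taking any Foxp3 UMI in place of the sum gave the same 60 cells as requiring Foxp3. No paired analysis was possible because the barcodes carry no replicate number. The small number of cells in S4, 16 with a median of 7253 UMIs per cell, limits the precision of every value.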
